A study of Homo sapiens with 4 samples.

Results

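The receptors described are 8 lymphocyte receptors for lipid mediators, CYSLTR1, CYSLTR2, LTB4R, PTGER4, GPR174, P2RY10, GPR34 and GPR18. They were chosen by gene symbol in the authors' deposited table, with earlier results in view: CYSLTR1 and GPR174 had stood out by their differences from the library without doxycycline. Of the 8 genes, 7 had a probe set of their own, 1 each, out of 19088 genes with 1 symbol. LTB4R had none and is represented by 1 probe set that carries the symbols LTB4R and LTB4R2 together. RNA came from clone AB7 of DG75, an established Burkitt's lymphoma B cell line. The labels give its genotype as Bcl6-/-;tetBCL6-HA, that is, no intact native BCL6 and a tetracycline-controlled BCL6 with an HA tag, and every library carries both changes. There were 4 libraries, 1 grown without doxycycline (labelled 0 h) and 3 with it, at 1 µg/ml, for a labelled 16, 48 or 96 h. Each labelled time has 1 library, so no difference has a replicate check and no test was made. All cells come from 1 clone, and no parental or native BCL6 line was analysed here.

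Lipid mediator receptors are cell surface receptors that couple to G proteins. Leukotrienes and prostaglandins are made from arachidonic acid. The cysteinyl leukotrienes act on CYSLTR1 and CYSLTR2, leukotriene B4 acts on the LTB4R product BLT1, and prostaglandin E2 acts on the PTGER4 product EP4, which raises cyclic AMP. Lysophosphatidylserine, a phospholipid with a single acyl chain, acts on GPR34, P2RY10 and GPR174. GPR18 is reported as a receptor for N-arachidonoyl glycine and resolvin D2, so it belongs to neither the leukotriene, the lysophospholipid nor the prostaglandin receptors. In lymphocytes such receptors guide migration and set the threshold of activation.

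The targeted gene read lower in each library with doxycycline than in the one without. BCL6, which represses transcription in germinal centre B cells, had log2 intensities of 11.10, 10.58, 10.25 and 10.50 in the libraries labelled 0, 16, 48 and 96 h. It was thus highest in the library labelled as untreated, and every direction below is a direction between labelled libraries. Whether its probe set reads the native or the tagged copy, and in which direction doxycycline controls the tagged copy, was not tested. All 4 libraries carried B cell RNA, with 9 or 10 of 10 B cell markers above the 95th percentile of the olfactory receptor probe sets in each library. The median differences of the B cell markers from 0 h were 0.29, 0.43 and 0.62 at the labelled 16, 48 and 96 h. At these times 2, 3 and 6 of the 10 were at least 1.5-fold higher. Over all genes, 2.73%, 2.77% and 3.4% were that much higher. CD79A went the other way, with log2 differences of -0.38, -0.37 and -0.51. The 10 germinal centre markers were mixed, with medians of 0.09, -0.15 and -0.20, GCSAM higher by 1.64 and SERPINA9 lower by a log2 difference of -1.07 at 96 h. Of 13 markers of T and NK cells, 6 or 7 lay above the 95th percentile of the olfactory receptor probe sets. Their summed intensity was 9.98 to 10.25 on the log2 scale. CD4 was the highest of them, at 8.68 at 0 h and 9.06 at 96 h. CD3E went from 7.28 at 0 h to 7.92 at 96 h and CD3G from 6.94 to 6.97. CD3D was near 4.2 to 4.3. Of 9 measured mast cell, basophil and eosinophil markers, 1 or 2 lay above that percentile, with a summed intensity of 7.32 to 7.50. Of 8 plasma cell markers, 5 or 6 lay above it. Their summed intensity, 11.98 at 0 h and 12.97 at 96 h, was mostly that of JCHAIN, which read 11.57 and 12.69. XBP1 was also higher, by 0.34, 1.02 and 0.92 at 16, 48 and 96 h. At 96 h these 2 of the 8 markers were at least 1.5-fold higher, and none was that much lower. The list's median difference at 96 h was 0.06, and PRDM1 and IRF4 stayed below the 95th percentile. Of 9 monocyte and macrophage markers, 2 lay above it in each library, with a summed intensity of 7.67 to 7.75. The part of other cells or of these marker differences in the receptors' differences was not tested.

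CYSLTR1, P2RY10 and GPR174 lie near each other on chromosome X, and they are the receptors with the largest differences, so the bases before their start sites are shown. Each sequence covers the 250 bases before the start in RefSeq's GRCh38.p14 table, 5′ to 3′ on the gene's strand. Capitals mark matches to GAGGAA, the core of the purine box bound by PU.1, or to GAAA followed after any 2 bases by a second GAAA, a repeat of the kind bound by interferon regulatory factors, on either strand. CYSLTR1 is chrX:78327612-78327861 on the minus strand, P2RY10 is chrX:78945141-78945390 on the plus strand and GPR174 is chrX:79144438-79144687 on the plus strand.
CYSLTR1: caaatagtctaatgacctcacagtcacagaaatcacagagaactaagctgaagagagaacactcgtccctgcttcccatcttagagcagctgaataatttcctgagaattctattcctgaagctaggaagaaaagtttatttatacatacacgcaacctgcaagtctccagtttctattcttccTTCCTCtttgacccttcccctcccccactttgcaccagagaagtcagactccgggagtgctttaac
P2RY10: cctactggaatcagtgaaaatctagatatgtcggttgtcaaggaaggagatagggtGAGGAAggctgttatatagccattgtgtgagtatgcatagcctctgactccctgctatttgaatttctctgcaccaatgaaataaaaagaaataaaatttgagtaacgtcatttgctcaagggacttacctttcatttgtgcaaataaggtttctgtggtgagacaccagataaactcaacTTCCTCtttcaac
GPR174: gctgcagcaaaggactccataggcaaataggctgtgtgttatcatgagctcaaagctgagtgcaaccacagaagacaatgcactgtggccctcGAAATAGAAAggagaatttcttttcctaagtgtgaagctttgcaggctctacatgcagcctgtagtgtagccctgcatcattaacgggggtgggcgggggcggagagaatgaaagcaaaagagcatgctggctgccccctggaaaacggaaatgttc

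In these windows CYSLTR1 had 1 match to GAGGAA, read as TTCCTC 66 to 61 bases before the start. P2RY10 had 2, at 194 to 189 and 13 to 8 bases before the start. GPR174 had none of these but 1 match to the GAAA repeat, 157 to 148 bases before the start. Of 15843 protein-coding genes with a promoter in the table, 23.4% held GAGGAA and 2.72% held the GAAA repeat in the same window. GPR18 held 1 match to the GAAA repeat, 75 to 66 bases before its start. A sequence was available for 7 receptors, LTB4R among them and GPR34 not. TTCNNNGAA, the palindrome bound by STAT factors and related to the BCL6 site, was found in 0 of these 7 and in 6.12% of all promoters. The octamer ATGCAAAT was also found in 0 of 7, and in 1.65% of all. The motifs do not overlap each other in these windows, and a match is a description of letters only. The 3 windows held 44.0% (CYSLTR1), 39.2% (P2RY10) and 50.4% (GPR174) G and C, against a median of 62.4% over all promoters.

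CYSLTR1, the receptor of highest affinity for leukotriene D4, was far higher in each library with doxycycline. Its log2 intensities were 4.79, 7.81, 7.85 and 8.74 in the libraries labelled 0, 16, 48 and 96 h. The 0 h library was therefore low, the 16 and 48 h libraries were level with each other, and the 96 h library was highest. In linear intensity these were 27.6, 224, 230 and 429. The differences from 0 h were 3.02, 3.06 and 3.96, which placed CYSLTR1 at rank 1, 1 and 2 of 19088 genes at the 3 times, without a test. These differences share the 0 h library. Between libraries with doxycycline, the 48 h library differed from the 16 h library by 0.04 and the 96 h library from the 48 h library by 0.90, or 1.86-fold. At 0 h the level was within the range of olfactory receptor genes, which B cells are not known to express and which here mark the floor of the array: 340 of 363 olfactory receptor probe sets were at or below it, and 363 of 363 were at or below it at each later time.

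The related receptors for leukotrienes and prostaglandin E2 differed far less. CYSLTR2, the other cysteinyl leukotriene receptor, read 3.48, 3.54, 3.86 and 3.77 at the labelled 0, 16, 48 and 96 h. All 4 of these values lie close to the median of the olfactory receptor probe sets, which was 3.77 at 0 h, so CYSLTR2 was dim throughout. PTGER4, the EP4 receptor, read 4.60, 4.76, 4.64 and 4.73, a range of 0.16 over the libraries. The probe set shared by LTB4R and LTB4R2 read 6.64, 6.67, 6.92 and 6.94, above all 363 olfactory receptor probe sets in each library, and its largest difference from 0 h was 0.29. A separate probe set for LTB4R2, the low-affinity leukotriene B4 receptor, read 6.19, 5.99, 6.33 and 6.32, so the shared signal cannot be assigned to LTB4R.

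GPR174, the lysophosphatidylserine receptor with the largest difference, was higher in the library labelled 16 h and level after it. In the same order of labelled times, its log2 intensities were 5.48, 7.23, 7.14 and 7.21. Among the 3 libraries with doxycycline the largest difference was -0.085, from 16 to 48 h, and the 0 h library was low. The receptor was 3.36-fold, 3.17-fold and 3.32-fold higher than at 0 h, at ranks 4, 9 and 30 of 19088 genes. Already at 0 h, 359 of 363 olfactory receptor probe sets were at or below GPR174. Its course differs from that of CYSLTR1 after 48 h, where GPR174 differed by 0.07 and CYSLTR1 by 0.90.

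P2RY10, which lies next to GPR174, was dim in every library. Its log2 intensities were 3.75, 4.18, 4.61 and 4.61. The 0 h library was lowest, the 16 h library was between, and the later libraries were equal. The differences from 0 h were 0.43, 0.86 and 0.86, the latter 1.82-fold and 1.81-fold. At least as high a difference was found in 3, 0 and 0 of the 363 olfactory receptor probe sets at the 3 times. Nothing is read from this count, because the differences from 0 h helped to choose the receptors. The level of P2RY10 at 96 h was at or above 332 of the 363 olfactory receptor probe sets and not above their 95th percentile, 4.85.

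GPR34, the lysophosphatidylserine receptor best known from microglia and mast cells, read 3.34, 3.61, 3.75 and 3.57 at the 4 labelled times. Its largest difference from 0 h was 0.41, at 48 h, where the library was highest. GPR18 read 3.97, 4.37, 4.17 and 4.41, with the 16 and 96 h libraries above the 48 h library. Its differences were 0.40, 0.20 and 0.44. In RefSeq GPR34 lies within the span of CASK and GPR18 within that of UBAC2, which read 7.42 at 0 h and was higher by 0.48, 0.40 and 0.45. CASK read 6.99, 7.23, 7.01 and 6.89. How far the signal of either host gene enters these probe sets was not tested.

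**Figure D1:**
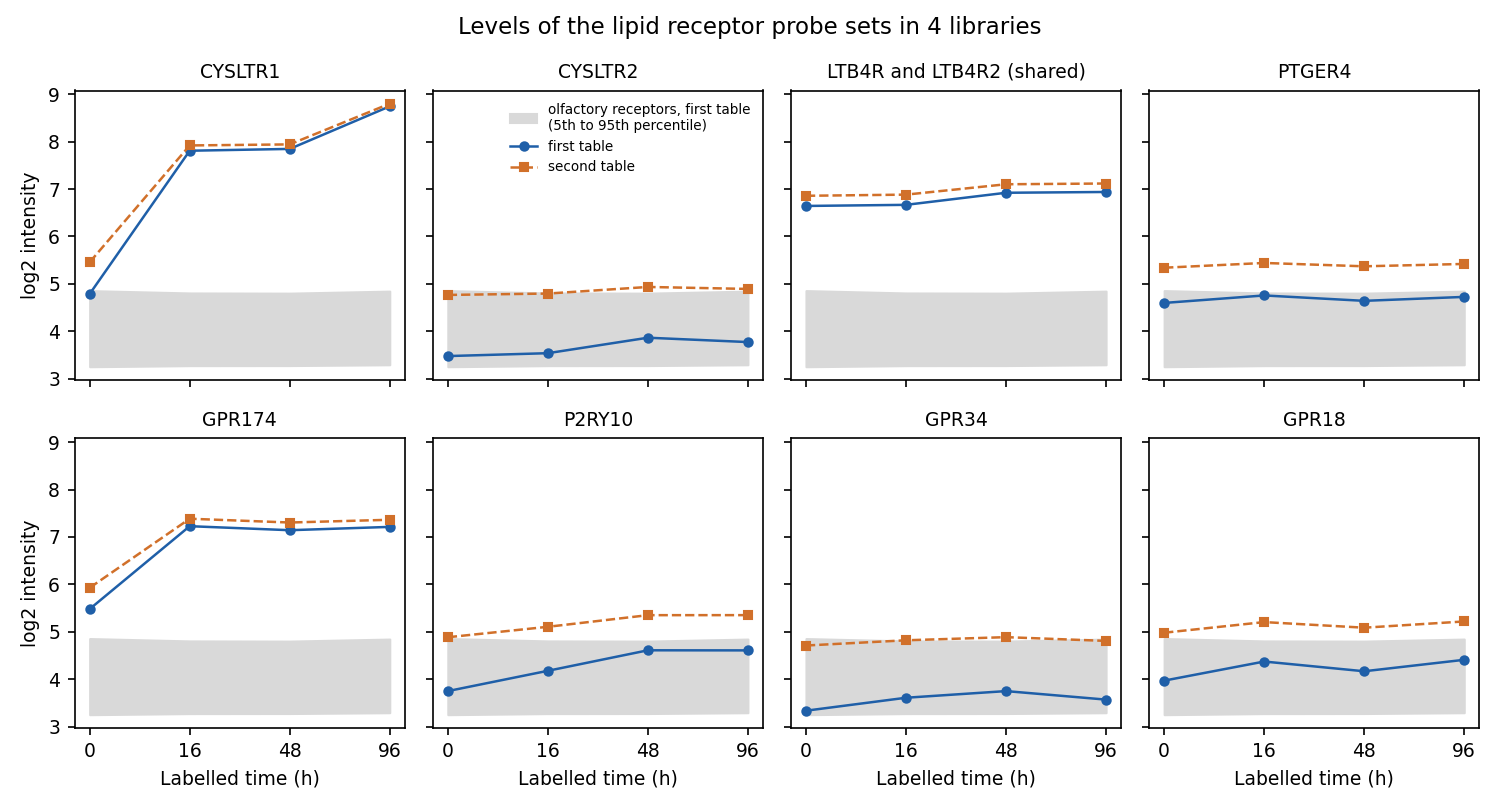
Log2 intensity (vertical axis) of each probe set by labelled time in hours (horizontal axis, evenly spaced), 1 library a point, in the first table (blue circles) and the second (orange squares). Grey bands span the 5th to 95th percentile of 363 olfactory receptor probe sets in the first table, so they apply to the blue circles and not to the orange squares. Of the blue circles, those of CYSLTR1 leave the band after 0 h. Those of GPR174 and the shared LTB4R probe set lie above it throughout, and those of the other 5 lie within it.

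Counted at 1.5-fold, 0.585 on the log2 scale, 2 of the 7 measured receptors were higher than at 0 h in the library labelled 16 h (CYSLTR1 and GPR174), and 3 at 48 h and 3 at 96 h with P2RY10. None of the 7 was lower. Over all genes, 2.73% were at least 1.5-fold higher at 16 h, 2.77% at 48 h and 3.4% at 96 h, and 0.55%, 1.06% and 2.19% were at least 1.5-fold lower. CYSLTR1 and GPR174 were past this size at all 3 times, as were 1.41% of all genes upward and 0.131% downward. Nothing is read from these counts, because the differences from 0 h helped to choose the genes. The median difference of the 7 receptors was 0.40, 0.41 and 0.44 at the 3 times, where the median of all genes was -0.01, -0.02 and -0.02. In the second deposited table, which holds the same intensities with a constant added, the receptors' medians were 0.22, 0.18 and 0.24, and the receptors at the median lie near the floor. All 7 differences were above 0 at each time, and the sign is shared through the one 0 h library. Only CYSLTR1 and GPR174 passed a filter on low values at a mean log2 value of 5.18 over the 4 libraries. CYSLTR1 read 4.79 at 0 h, below that value, so it passed only through the libraries with doxycycline.

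Steps that leave out the 0 h library showed little movement except for CYSLTR1. From 16 to 48 h, 0 of 7 receptors were at least 1.5-fold higher or lower, where 0.241% of all genes were higher and 0.513% lower. From 48 to 96 h, CYSLTR1 was the 1 receptor past this size, at rank 17 of 19088 genes, where 0.456% of all genes were past it upward and 0.435% downward. P2RY10 was higher by 0.43 at 48 h than at 16 h, at rank 206. From 16 to 96 h, CYSLTR1 was higher by 0.94 and GPR174 lower by a log2 difference of -0.02, where the share of all genes past 1.5-fold was 0.896% upward and 1.23% downward. Signs across the 7 receptors were mixed, with 4 above 0 in each of these comparisons.

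**Figure D2:**
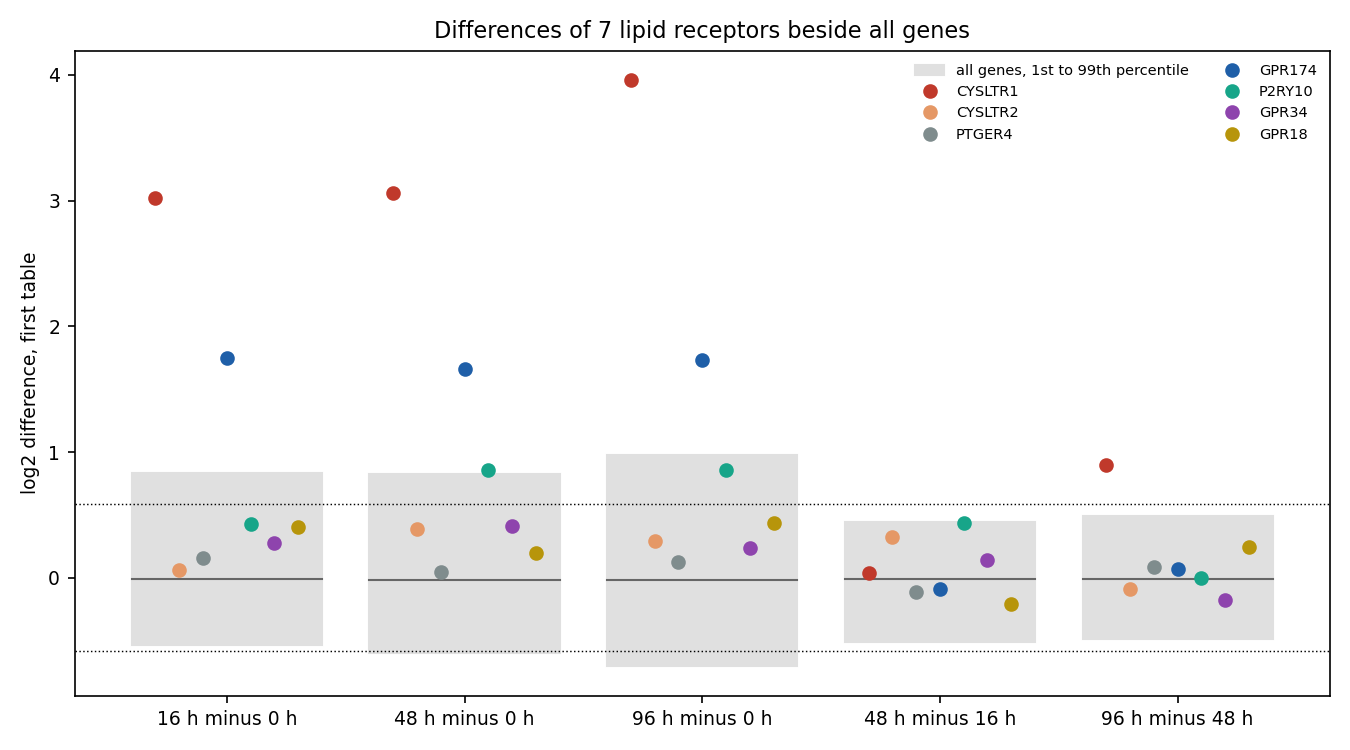
Log2 differences between labelled libraries in the first table (vertical axis) for 7 receptors (coloured points) in 5 comparisons (horizontal axis), with grey boxes from the 1st to the 99th percentile of 19088 genes, a line at their median and dotted lines at 1.5-fold. CYSLTR1 and GPR174 lie above the boxes in each comparison with 0 h, P2RY10 lies just above the box at 48 h against 0 h, and CYSLTR1 alone lies above the box between 48 and 96 h.

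The 2 deposited tables were compared because several receptors were near the floor. Adding 16 units to the linear intensity of the first table gave the values of the second to within 0.072 on the log2 scale for all 28869 shared probe sets and all 4 libraries. The second table therefore holds the same measurements with a constant added, and is no separate measurement. The addition shrinks differences of dim probe sets most. CYSLTR1 read 5.46 at 0 h and 8.80 at 96 h in the second table, so its difference was 3.34 in place of 3.96, or 10.2-fold in place of 15.5-fold. GPR174 differed by 1.46, 1.38 and 1.43 in place of 1.75, 1.66 and 1.73. P2RY10 differed by 0.22, 0.47 and 0.47, which ended its place past 1.5-fold at 48 and 96 h. By those values 2 of 7 receptors were therefore past it at each time, CYSLTR1 and GPR174, where 2% of all genes were at 16 h, 1.97% at 48 h and 2.62% at 96 h. CYSLTR2 and GPR34 kept less than their differences in the first table, at most 0.17 and 0.18. Adding a constant keeps the order of values, so the order of the 4 libraries is no check. It was the same in both tables for CYSLTR1, CYSLTR2, GPR174, GPR34, GPR18 and PTGER4. For P2RY10 the nearly equal 48 and 96 h libraries changed places. With the level at 0 h so near the floor, the fold of CYSLTR1 depends on which table is read, while its direction does not.

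**Figure D3:**
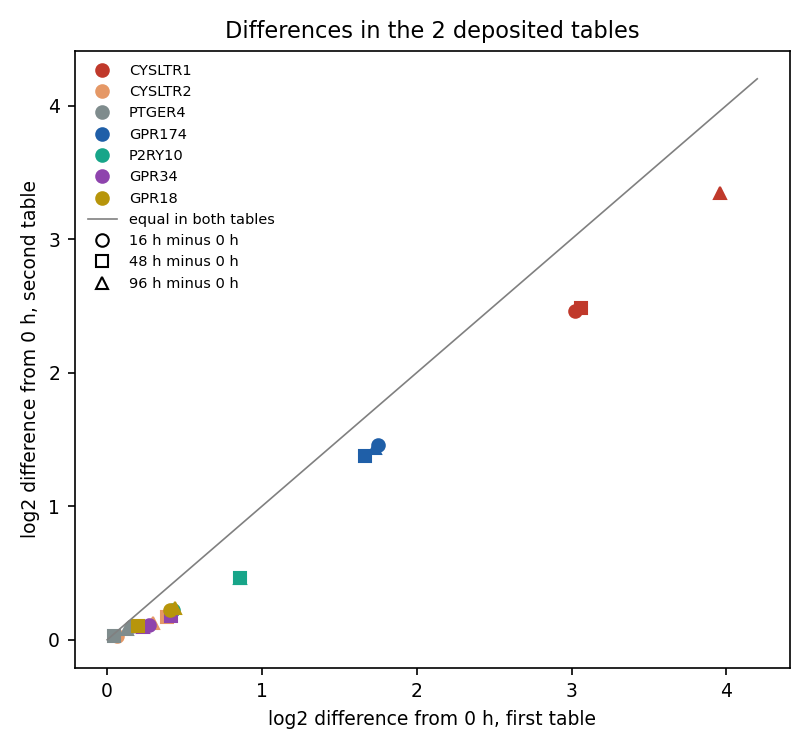
Log2 difference from the library labelled 0 h in the first table (horizontal axis) and the second (vertical axis), 1 point for each of 7 receptors (colour) at 16, 48 and 96 h (shape), with a line of equal differences. All points lie below the line, and those of P2RY10 at 48 and 96 h fall from 0.86 to 0.47.

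CYSLTR1, P2RY10 and GPR174 can be set beside their neighbours on the chromosome. In chromosome X order the measured protein-coding genes are ATRX, COX7B, PGK1, CYSLTR1, RTL3, LPAR4, P2RY10, GPR174, ITM2A, TBX22 and TENT5D. LPAR4, a lysophosphatidic acid receptor between CYSLTR1 and P2RY10, read 4.01, 4.24, 4.18 and 3.91 at the 4 labelled times. RTL3, the other gene between them, read 3.80, 3.90, 3.81 and 3.90. ITM2A, on the far side of GPR174, was lower by log2 differences of -0.22, -0.23 and -0.13, and PGK1, a glycolytic kinase beside CYSLTR1, by -0.10, -0.16 and -0.14. These neighbours lay below 1.5-fold at each time. RTL3, LPAR4 and ITM2A were within the olfactory receptor range in every library, so their values do not show whether they shared the receptors' course.

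On chromosome 13, GPR18 lies beside GPR183, the oxysterol receptor that guides activated B cells. GPR183 read 4.46, 5.23, 5.67 and 6.79, highest at 96 h, with differences of 0.78, 1.21 and 2.33, while GPR18 stayed within 0.44 of its level at 0 h. CYSLTR2 is flanked at 3 genes' distance by RB1, the retinoblastoma gene, which read 8.01, 9.25, 8.93 and 9.31 at the 4 labelled times. Nearer to CYSLTR2, LPAR6 read 3.59, 3.50, 3.53 and 3.48, and RCBTB2 was higher by 0.68, 0.40 and 0.33. GPR82, beside GPR34, read 3.34, 3.57, 3.63 and 3.56. Of the 32 neighbours within 3 genes of a receptor, 3, 2 and 4 were at least 1.5-fold higher at the 3 times and 0, 0 and 1 lower, and their median differences were 0.18, 0.11 and 0.13. Over all genes, 2.73%, 2.77% and 3.4% were that much higher and 0.55%, 1.06% and 2.19% lower.

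**Figure D4:**
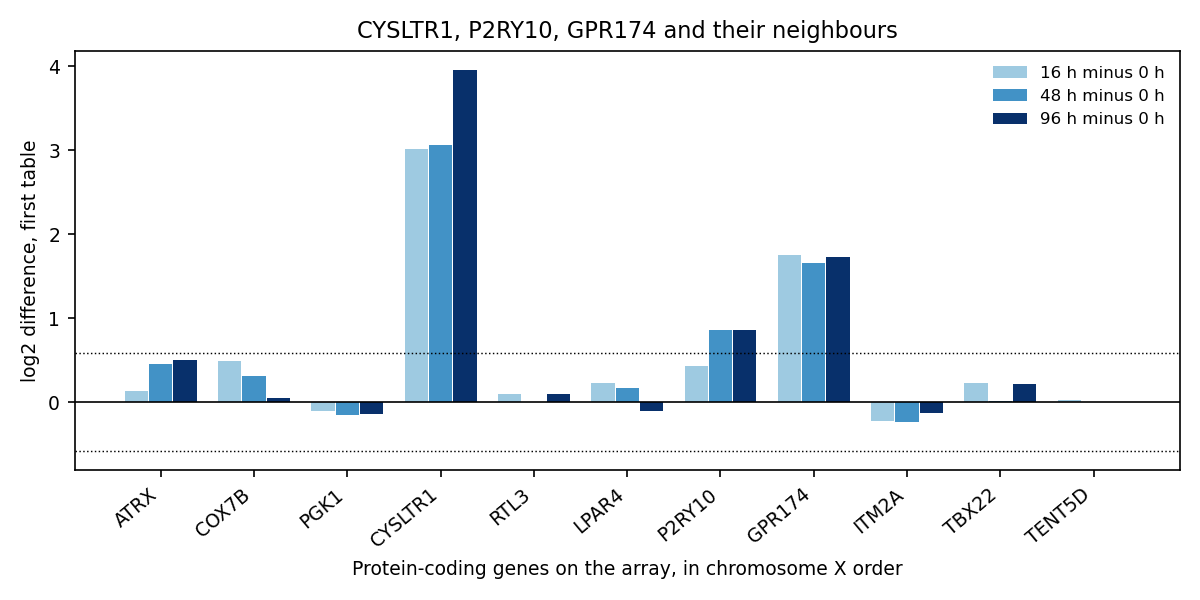
Log2 difference from the library labelled 0 h in the first table (vertical axis, bars from 0) at 16, 48 and 96 h for CYSLTR1, P2RY10, GPR174 and up to 3 measured protein-coding genes on each side, in chromosome X order (horizontal axis, not to distance), with dotted lines at 1.5-fold. The bars of CYSLTR1 and GPR174 pass the line at all 3 times and those of P2RY10 at 48 and 96 h, and no other gene passes it.

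Genes with a like course were found by the root mean square distance over the 3 differences from 0 h, among 10894 of the 11453 genes past the filter, after small RNA genes, antigen receptor segments, olfactory receptors and loci without a gene name of their own were left out. For GPR174 the 5 nearest were SESN1, LRRN3, PDCD4, SCN3A and MAML3, at distances of 0.20 to 0.27. SESN1, a stress-induced inhibitor of mTORC1, was higher by 1.48, 1.52 and 1.90. For CYSLTR1 the nearest were LAPTM5, IFI44L, TASL, BCL2A1 and SAMD9L, at distances of 1.16 to 1.55. These distances are large because the differences of CYSLTR1 are themselves among the largest, so they say little about its course. LAPTM5, a lysosomal membrane protein, was higher by 1.25, 2.57 and 3.16. For P2RY10 the nearest were NCOA3, ELL3, TMEM131L, INPP5D and SLC25A27, at 0.06 to 0.07. INPP5D, a lipid phosphatase of lymphocyte signalling, was higher by 0.36, 0.86 and 0.96. The 3 differences behind each distance share the 0 h library, and the distances carry no test.

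Of 45 other lipid receptor genes, 43 were measured, and 2, 4 and 4 were at least 1.5-fold higher at 16, 48 and 96 h, with 0, 0 and 1 lower. Over all genes, 2.73%, 2.77% and 3.4% were higher by this size and 0.55%, 1.06% and 2.19% lower. The median differences of the 43 receptors were -0.06, -0.09 and 0.04. S1PR4, a sphingosine 1-phosphate receptor of lymphocytes, read 5.69, 6.29, 6.54 and 6.77 at the 4 labelled times, and with GPR183 it was past 1.5-fold at all 3 times. In the second table both fell short of it at 16 h, with differences of 0.49 each. GPR65, a proton-sensing receptor also linked to the lipid psychosine, read 5.95, 6.51, 6.69 and 6.94. CNR2, the cannabinoid receptor of immune cells, read 6.17, 6.71, 6.99 and 7.45. These 4 genes were lowest at 0 h and highest at 96 h, an order that CYSLTR1 also had. GPR132, a receptor linked to lysophosphatidylcholine and oxidised fatty acids, read 8.01, 7.56, 7.51 and 7.40. It was past 1.5-fold downward at 96 h alone, by -0.61, and not in the second table, by -0.57.

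The 18 measured leukotriene and prostanoid receptors had median differences of -0.07, -0.02 and 0.03, with CYSLTR1 the 1 gene past 1.5-fold at each time. The 18 lysophospholipid receptors had medians of 0.05, -0.03 and -0.03, with 2, 4 and 4 past it upward. The upward share over all genes was 2.73%, 2.77% and 3.4%. The 19 measured P2Y and P2Y-like receptors, the family to which CYSLTR1, GPR174, P2RY10 and GPR34 belong by sequence, had medians of -0.05, -0.04 and -0.06. In that family 2, 3 and 3 were past 1.5-fold, and each of these was CYSLTR1, GPR174 or P2RY10.

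Among 31 measured genes of eicosanoid synthesis and transport, 1, 1 and 2 were at least 1.5-fold higher and 0 lower. The shares over all genes were 2.73%, 2.77% and 3.4% higher and 0.55%, 1.06% and 2.19% lower. ALOX5, the lipoxygenase that starts leukotriene synthesis, read 9.13, 9.82, 9.93 and 10.11, past 1.5-fold at all 3 times. ABCC1, which exports leukotriene C4, read 7.76, 8.06, 8.23 and 8.62. The list's medians were 0.00, 0.09 and 0.04. Of 24 genes of lysophospholipid synthesis and breakdown, 0, 0 and 1 were past it, SGPP1, a sphingosine 1-phosphate phosphatase, with 8.10 at 0 h and 8.71 at 96 h. Its difference of 0.61 was 0.58 in the second table, just short of 1.5-fold.

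Downstream of the receptors, 41 measured genes of G proteins and effectors had medians of 0.08, 0.05 and 0.01, and 3, 1 and 1 were at least 1.5-fold higher with 0 lower. Beside these counts, 2.73%, 2.77% and 3.4% of all genes were higher and 0.55%, 1.06% and 2.19% lower. PRKACB, a catalytic subunit of protein kinase A, was higher by 0.70, 0.32 and 0.37. PDE7A, a cyclic AMP phosphodiesterase, was higher by 0.56, 0.51 and 0.73. CREM, a cyclic AMP responsive factor that was dim, was higher by 0.61, 0.74 and 0.56, and by 0.39, 0.48 and 0.36 in the second table, below 1.5-fold. Of 17 genes of receptor desensitization, 1, 0 and 1 were higher, RGS13, a regulator of G protein signalling of germinal centre B cells, which read 9.42, 10.30, 9.77 and 10.35.

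**Figure D5:**
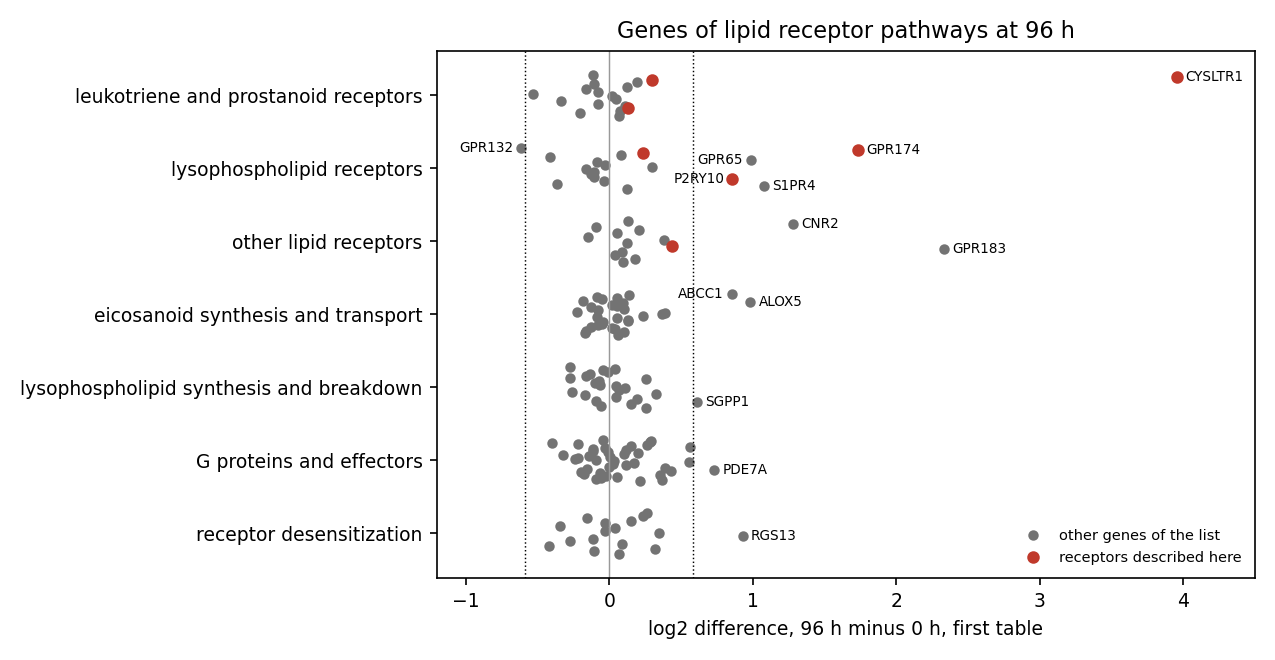
Log2 difference between the libraries labelled 96 h and 0 h in the first table (horizontal axis) for the measured genes of 7 lists (vertical axis, points spread only for legibility), with dotted lines at 1.5-fold. Red points are receptors described here and grey points the other genes; names mark genes past 1.5-fold, of which CYSLTR1 at 3.96 and GPR183 at 2.33 lie furthest out.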

How the data were processed

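RNA of 4 libraries was measured on 1-colour arrays. The labels' protocols describe amplification of total RNA, conversion to sense-strand cDNA and biotin labelling of its fragments. Both tables of the authors hold deposited log2 intensity values, a scale read from the values themselves. The first table holds 33297 probe sets and gave the main values; the second holds 28869 and gave the gene symbols. Background correction, normalization, software and build were not given in the sources used here. Arrays give no read depth, and their number limits the precision.

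Symbols were updated through RefSeq's GRCh38.p14 gene table, by accession for 17017 of 19937 probe sets with 1 symbol, by current or older symbol for 841 and 836, and 1243 were kept. For 621 of 19088 genes the probe set with the highest mean was taken. Differences are between single libraries, counted at 1.5-fold, with no test. Counting was tested on simulated data. The 363 olfactory receptor probe sets, single-exon receptor genes, describe the floor. Named genes are the 8 receptors, BCL6, list genes at least 1.5-fold different from 0 h (at all 3 times, or up to 4 per direction by mean), the 5 nearest courses and the 3 nearest neighbours on each side. One list gene that this rule names is not reported here. The receptors, lists and motifs were chosen with earlier results of these data known. Alternatives were the second table, median, quantile and cyclic loess scaling (limma 3.58.1 in R 4.3.3), the mean of probe sets, a filter at the 40th percentile, other fold thresholds and leaving out a library. Python 3.11.15 was used otherwise.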

Additional observations from a re-analysis of the deposited data

How the results depend on the processing

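The counts of receptors past 1.5-fold kept within 1.5 times of the main counts under the second table, median, quantile and cyclic loess scaling, the mean of probe sets and the filter on low values. At 1.3-fold they were 4 at 16 h and 5 at 48 h against 0 h, and 2 at 96 h against 16 h, each of them higher. The share of all genes at least 1.3-fold higher was 7.2925%, 6.9258% and 3.9973% in these comparisons. At 2-fold the count at 96 h against 16 h was 0, where 0.1362% of all genes were higher. Of the receptors' differences under these alternatives, 220 kept their side of 1.5-fold and 2 did not, P2RY10 at 48 and 96 h in the second table (0.47 each), where the added 16 units shrink dim values. The mean of probe sets could change no receptor's count or difference, because each has 1 probe set, so its 42 differences among the 220 are no check. The filter changes no value, so its 12 differences are no check either. Receptors past 1.5-fold at every remaining time numbered 2 or 3 when 1 of the doxycycline libraries was left out. No difference past 1.5-fold changed sign. Counts over all genes moved by over 1.5 times in the second table and with median centring: 48 and 62 genes in place of 105 were lower at 16 h, and 124 in place of 202 were lower at 48 h, with 103 and 147 in place of 171 and 234 higher and lower at 96 h against 16 h, both in the second table. Of all calls at 96 h against 16 h, 42.2% were higher, and 27.4%, 51.9% and 51.6% with median, quantile and loess scaling. Of the counts within gene lists, 16 moved by over 1.5 times. In the second table the lysophospholipid receptors past 1.5-fold numbered 1 at 16 h and 3 at 96 h in place of 2 and 5, the B cell markers 1 at 48 h and 3 at 96 h in place of 3 and 6, and the other lipid receptors at 16 h, the lysophospholipid synthesis genes at 96 h, the G protein genes at 48 h and the T and NK cell markers at 96 h 0 in place of 1. The filter moved 20 list medians by at least 0.1, since it left fewer genes. No paired analysis was possible because each group has 1 library. Signal near the floor limits what can be said of CYSLTR2, GPR34, GPR18, PTGER4 and P2RY10.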
